A study of Mus musculus with 21 samples.

Results

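The calcium handling genes are 33 genes whose proteins move, store, release or sense calcium in heart muscle cells. They were chosen by name, each with the probe sets that the platform annotation gives it, and the brightest of these stands for the gene unless another is named. Of the 33 genes, 32 had a probe set of their own and 31 passed the filter on low values, out of 13279 tested genes of 18193 gene symbols in the whole series. Itpr1 had no probe set that named it alone, and the only probe set of Trpc6 lay below the filter, so neither was tested. The study compared wild-type mice with G4D mice, which carry 1 Gata4 allele that lacks the second exon and were described as having reduced Gata4, a transcription factor of heart muscle. Each genotype was studied after a sham operation or after transverse aortic constriction (TAC), in which a ligature narrows the aorta and the heart pumps against a higher load. The 21 arrays fell into 4 groups: in wild type, 4 after sham and 6 after TAC, and in G4D, 5 after sham and 6 after TAC. Strain, age, sex and the time after the operation are not given in the sources used here, and nothing says that replicates are separate animals, so p-values measure only the spread between these samples, which may be technical.

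In each heartbeat, calcium that enters through L-type channels of the surface membrane opens ryanodine receptors of the sarcoplasmic reticulum, and the larger amount of calcium released there starts contraction. Relaxation follows when the SERCA pump, held in check by phospholamban, returns calcium to the reticulum and the sodium-calcium exchanger carries the rest out of the cell. Calmodulin-dependent kinase II adjusts several of these steps, and changes in the expression of these genes are a well-known feature of failing hearts.

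All values are log2 probe-set intensities after quantile normalization, so a difference of 1 is a doubling, and a level of one probe set cannot be set against that of another. A gene is said to have risen or fallen, or is called, when its limma p, adjusted by Benjamini-Hochberg over the 13279 genes, was under 0.05, and differences are given with their standard error. Before normalization the array medians ran from 4.31 to 5.33. Normalized arrays correlated with the mean of the rest of their group at 0.931 or more. No pair of arrays correlated above 0.943, so none looked like a repeat of another. The 8 cardiomyocyte markers were all above the filter, with a mean level of 12.6 to 12.7 in each array. They lie near the highest normalized value of 13.1, where quantile normalization gives every array the same few values. Their steady mean therefore says little about the share of cardiomyocytes. Markers of other cells were detected as well, although the source is labelled as cardiac myocytes. The mean of 9 fibroblast markers was 9.26 to 9.34 in wild-type sham, 9.73 to 10.5 in wild-type TAC, 9.12 to 9.79 in G4D sham and 9.998 to 10.8 in G4D TAC. The mean of 8 macrophage and myeloid markers was 7.57 to 7.71, 8.03 to 8.92, 7.24 to 7.67 and 7.92 to 8.63 in the same order, so both lists separated TAC from sham in each genotype. In G4D sham replicate 5 the mean of the 5 detected atrial markers was 10.4. G4D TAC replicate 6 came next at 7.90, and the other arrays lay between 6.32 and 7.24. The atrial marker Sln, below the filter, stood at 12.88 and 7.38 in these arrays and at most at 3.47 elsewhere. The adipocyte markers Adipoq and Ucp1, also below the filter, were 8.01 and 6.80 in G4D sham replicate 5. They reached at most 3.49 and 2.45 elsewhere, while Retn and Fabp4 did not stand out in that array. The difference between the 3' and the 5' control probe sets of actin, a measure of RNA integrity and labelling, was 0.52 ± 0.10 (SD, n = 4) in wild-type sham, 0.32 ± 0.11 (n = 6) in wild-type TAC, 0.46 ± 0.10 (n = 5) in G4D sham and 0.25 ± 0.08 (n = 6) in G4D TAC. Sham and TAC arrays did not overlap in the actin measure in either genotype. The same measure for Gapdh overlapped in both, at -0.17 ± 0.19 and -0.21 ± 0.08 in wild-type sham and TAC and at -0.33 ± 0.07 and -0.18 ± 0.10 in G4D sham and TAC, so in G4D it differed in the other direction. The part of either in the results below was not tested. The 2 Gata4 probe sets had levels of 7.93 to 8.29 and 5.68 to 6.86 in wild-type sham and of 7.70 to 7.93 and 5.90 to 6.63 in G4D sham. The genotypes differed in sham by -0.25 ± 0.12 and -0.07 ± 0.31 (limma adjusted p = 0.822 and 0.993). After TAC the levels were 7.43 to 8.15 and 5.63 to 6.75 in wild type and 7.64 to 8.14 and 5.24 to 6.80 in G4D, and the genotypes differed the other way, by 0.17 ± 0.11 and 0.07 ± 0.27 (adjusted p = 0.739 and 0.987). Lower Gata4 in G4D was thus not detected in either condition, and where these probes lie relative to the second exon is not given in the sources used here.

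Since the genotypes differ in a GATA factor, the promoters of the members were searched for the GATA motif, with the letters AGATAA or AGATAG, and TGATAA or TGATAG, on both strands, in the RefSeq windows from 250 bases before to 50 bases after each listed start (build GRCm38.p6). Of 32851 windows in the genome table, 29.8% held a match. The table had 29 windows for 24 of the members, and 6 of these windows (20.7%), of 5 genes, held one. Of the 9 genes called in any comparison, 8 had a window and 4 had a match, namely Slc8a1, Pln, Cacna1c and Hrc. This count is per gene, and some genes had several windows, so it cannot be set against the share of windows. The bases before the start are printed for the 3 of them whose matches lie there, on the strand of the gene and with each match in capitals.

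Slc8a1, chr17:81738388-81738637, minus strand: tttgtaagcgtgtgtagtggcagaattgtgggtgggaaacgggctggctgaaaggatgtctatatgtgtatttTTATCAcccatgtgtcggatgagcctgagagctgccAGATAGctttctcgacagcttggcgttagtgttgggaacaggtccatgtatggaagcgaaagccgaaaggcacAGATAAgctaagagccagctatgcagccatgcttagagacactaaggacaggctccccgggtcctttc

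Pln, chr10:53337436-53337685, plus strand: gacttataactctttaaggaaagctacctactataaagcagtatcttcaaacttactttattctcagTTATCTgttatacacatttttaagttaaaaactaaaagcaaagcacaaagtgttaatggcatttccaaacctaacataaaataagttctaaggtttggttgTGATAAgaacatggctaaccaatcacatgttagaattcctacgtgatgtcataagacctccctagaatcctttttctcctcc

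Cacna1c, chr6:118757975-118758224, minus strand: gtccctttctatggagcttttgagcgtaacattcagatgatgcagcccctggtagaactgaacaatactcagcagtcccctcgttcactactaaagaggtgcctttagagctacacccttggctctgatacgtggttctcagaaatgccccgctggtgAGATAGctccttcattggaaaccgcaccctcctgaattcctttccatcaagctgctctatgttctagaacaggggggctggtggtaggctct

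Cacna1c, chr6:119196410-119196659, minus strand: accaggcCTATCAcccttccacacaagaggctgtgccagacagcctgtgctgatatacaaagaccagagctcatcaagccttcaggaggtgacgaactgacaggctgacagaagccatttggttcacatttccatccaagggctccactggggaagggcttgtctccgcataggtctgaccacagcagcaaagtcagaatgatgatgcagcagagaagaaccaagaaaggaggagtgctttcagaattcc

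The Slc8a1 window, picked here as the one with the most matches among the 29, held 4 matches, and 0.332% of all windows held 4 or more. They began at -177, -141 and -68 relative to the start and at 8 bases after it, the last outside the stretch printed. The Pln window held 2, at -183 and -82, and 7.77% of all windows held 2 or more. Cacna1c had 3 windows, and the 2 printed held 1 match each, at -92 and at -243. Hrc had a match 24 bases after its start. The windows of Casq1, Sri, Camk2b and Cacnb2 held none, and Trdn had no window in the table. A match describes letters only, and no binding was measured.

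After TAC, fewer of the calcium handling genes were called in wild-type hearts than in G4D hearts, as was so among all tested genes. In wild type, 3 of 31 were called (9.68%, against 7.35% of all tested genes): Casq1 and Sri rose (5.19% of all tested genes did) and Cacnb2 fell (2.16% did). In G4D, 9 of 31 were called (29.0%, against 22.5% of all tested genes): Casq1, Slc8a1, Camk2b and Sri rose (13.2% of all tested genes did), while Cacna1c, Cacnb2, Trdn, Hrc and Pln fell (9.32% did). The 5 falls were called after quantile normalization and not under the 2 other scalings tried, and Trdn differed upwards in the values as deposited (0.12). Sham and TAC arrays did not overlap for 4 members in wild type (10.5% of all tested genes) and for 6 in G4D (10.1%). Both shares of called members lie near the background. The median difference of the 31 genes was -0.07 in wild type and -0.03 in G4D, against -0.02 in both for all genes. The TAC effect had the same sign in both genotypes for 21 of the 31 genes (72% of all genes). It was larger in size in G4D for 21, a count for which the share of all genes was not worked out. The median size of the effect was 0.148 in wild type and 0.153 in G4D for the calcium handling genes, against 0.139 and 0.183 for all genes. The difference between the 2 TAC effects was tested directly as an interaction, and no member passed it (0 of 31, against 0.0151% of all tested genes), although 3 had an unadjusted p under 0.05 (8.36% of all tested genes). A call in one genotype alone is therefore not a shown difference between the genotypes.

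Dimmer probe sets of the members were fitted among all 22661 probe sets above the filter. Of 47 such probe sets, 1 was called lower in wild-type TAC (against 1.35% of all probe sets), and 3 were called higher and 9 lower in G4D TAC (against 11.8% and 7.84%). None that moved against the call of its gene's brightest probe set had an unadjusted p under 0.05.

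**Figure D1:**
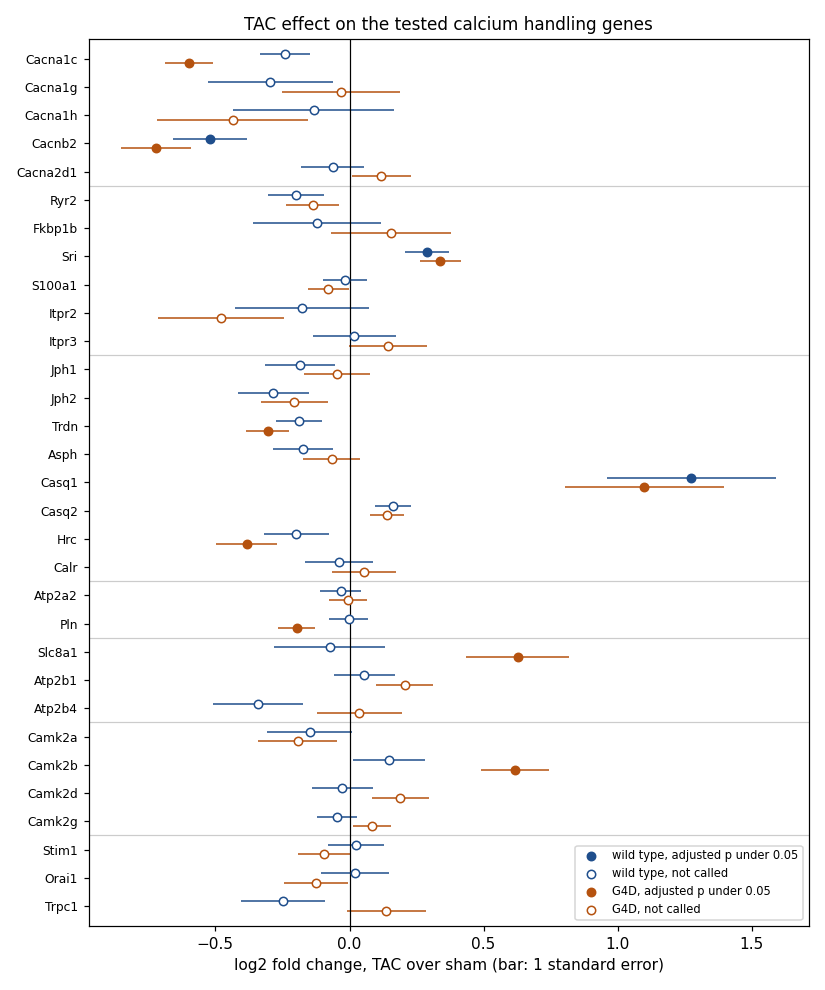
The log2 fold change of TAC over sham is plotted for the 31 tested calcium handling genes, in wild type (blue) and in G4D (orange), with bars of 1 standard error and filled points for an adjusted p under 0.05. Genes are ordered by role, and Casq1 stands far to the right in both genotypes (1.27 and 1.10) while Cacnb2 is the lowest point in both (-0.52 and -0.72).

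Among the 5 entry channels of the surface membrane, 2 fell after TAC in G4D (against 9.32% of all tested genes) and 1 in wild type (against 2.16%). Cacna1c encodes the pore of the cardiac L-type channel, through which the trigger calcium enters. Its levels were 9.28, 9.27, 9.15 and 9.13 in wild-type sham and ran from 8.87 through a median of 8.97 to 9.08 in wild-type TAC. In G4D sham they were 9.12, 9.49, 9.30, 9.15 and 8.87, and in G4D TAC they ran from 8.49 through 8.56 to 8.76. Every TAC array lay below every sham array of its own genotype, and every G4D TAC array lay below every wild-type TAC array. In G4D its level fell by 34.0%, a difference of -0.60 ± 0.09 (limma adjusted p = 5.65e-05), and in wild type it differed by -0.24 ± 0.09 (adjusted p = 0.143), which was not called. The interaction was -0.36 ± 0.13 (adjusted p = 0.394, unadjusted p = 0.011). The dimmer Cacna1c probe set 1435730_at gave -0.46 ± 0.14 in wild type and -0.32 ± 0.13 in G4D (adjusted p = 0.062 and 0.093), so the order of the genotypes seen in the brightest probe set was not seen in it. In bulk RNA, fewer cells of a type and less RNA per cell cannot be told apart, and this holds for each gene that fell.

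Cacnb2, the main cardiac beta subunit, which brings the L-type pore to the membrane and tunes its gating, fell in both genotypes. Its levels were 8.45, 8.20, 8.51 and 8.43 in wild-type sham and 7.38, 7.88 and 8.35 as the lowest, median and highest of wild-type TAC. The levels in G4D sham were 8.58, 8.40, 8.21, 8.20 and 8.36, against 7.32, 7.66 and 7.88 as the lowest, median and highest of G4D TAC. G4D TAC lay wholly below G4D sham, whereas wild-type TAC replicate 6, at 8.35, lay within the wild-type sham range. The difference was -0.72 ± 0.13 in G4D (limma adjusted p = 0.000407) and -0.52 ± 0.14 in wild type (adjusted p = 0.0242). The wild-type call was lost without wild-type sham replicate 1, 3 or 4 (-0.50, -0.48 and -0.51) or wild-type TAC replicate 4 (-0.52), with adjusted p between 0.0504 and 0.0811, and with the wild-type arrays fitted alone (adjusted p = 0.0573). With the mean of both probe sets it was -0.50 (adjusted p = 0.182). The dimmer Cacnb2 probe set fell by 0.48 ± 0.31 and 0.62 ± 0.29 on the log2 scale in wild type and G4D, and was not called in either (adjusted p = 0.467 and 0.148). The T-type pore genes Cacna1g and Cacna1h and the auxiliary subunit Cacna2d1 were not called, with TAC effects of -0.29 ± 0.23, -0.13 ± 0.30 and -0.06 ± 0.12 in wild type and of -0.03 ± 0.22, -0.44 ± 0.28 and 0.12 ± 0.11 in G4D. A dimmer Cacna2d1 probe set, 1440397_at, was called higher in G4D TAC at 0.60 ± 0.18 (adjusted p = 0.0204), while the other 3 above the filter ran from -0.23 to 0.12.

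Of the release channels and their partners, Sri alone was called, and it rose in both genotypes (5.19% of all tested genes did in wild type and 13.2% in G4D). Sri encodes sorcin, a calcium-binding protein that damps the opening of ryanodine receptors. Its levels were 7.97, 7.76, 7.83 and 7.87 in wild-type sham and 8.07, 8.15 and 8.20 as the lowest, median and highest of wild-type TAC. In G4D sham they were 7.63, 7.63, 7.96, 7.93 and 7.98, and in G4D TAC they ran from 8.08 through 8.16 to 8.29. Sham and TAC did not overlap in either genotype. TAC over sham was 0.29 ± 0.08 in wild type (limma adjusted p = 0.0319), a level 22.2% higher, and 0.34 ± 0.08 in G4D (adjusted p = 0.0027), 26.5% higher. The wild-type call was lost when any of 6 arrays was left out: wild-type sham replicates 2, 3 and 4 (0.26, 0.28 and 0.29) and wild-type TAC replicates 4, 5 and 6 (0.28, 0.29 and 0.28). Adjusted p then ran from 0.0546 to 0.105. With the replicate number as a block it was 0.26 with an adjusted p of 0.141, and with the mean of the probe sets it was 0.26 with an adjusted p of 0.0855.

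The release channel itself, Ryr2, and its stabilising partner Fkbp1b (calstabin 2) did not pass the test. Ryr2 differed by -0.20 ± 0.10 in wild type and -0.14 ± 0.10 in G4D, with 95% intervals from -0.42 to 0.02 and from -0.34 to 0.07. Fkbp1b differed by -0.12 ± 0.24 and 0.15 ± 0.22. Its single probe set ran from 3.82 to 5.31, around the filter of 4.35, so little could be detected there. S100a1, which enhances release and uptake, differed by -0.02 ± 0.08 and -0.08 ± 0.08. Of the inositol trisphosphate receptors, Itpr3 differed by 0.02 ± 0.16 and 0.14 ± 0.15 and Itpr2 by -0.18 ± 0.25 and -0.48 ± 0.23. The next brightest Itpr2 probe set, 1424834_s_at, was called lower in G4D TAC at -0.44 ± 0.11 (adjusted p = 0.00929 among probe sets).

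Of the 8 junctional and luminal proteins of the sarcoplasmic reticulum, Casq1 rose in both genotypes, Trdn and Hrc fell in G4D, and the other 5 were called in neither. Of all tested genes, 5.19% rose in wild type, and in G4D 13.2% rose and 9.32% fell. Casq1 encodes calsequestrin 1, the calcium buffer of the store, best known as the skeletal muscle form beside the cardiac form Casq2. Its levels were 7.65, 7.89, 9.11 and 8.11 in wild-type sham and 8.81, 9.52 and 10.09 as the lowest, median and highest of wild-type TAC. The G4D sham levels were 8.28, 7.95, 8.87, 8.92 and 9.72, and the G4D TAC levels ran from 9.50 through 9.82 to 10.35. Within wild type, sham replicate 3 at 9.11 stood above the 2 lowest TAC arrays, and within G4D, sham replicate 5 at 9.72 stood above the 2 lowest TAC arrays. After TAC its level differed by 1.27 ± 0.32 in wild type (limma adjusted p = 0.016), a 2.42-fold level, and 1.10 ± 0.30 in G4D (adjusted p = 0.0103), a 2.14-fold level. The wild-type call was lost without sham replicate 1 (1.09) or sham replicate 2 (1.17), with adjusted p of 0.0746 and 0.0578. Without G4D sham replicate 5, the array with the highest atrial markers, the G4D effect was 1.34, and 9 members were called as before. Casq1 had a single probe set. Of 8 skeletal muscle markers, 5 (Mylpf, Tnnt3, Actn3, Pvalb and Tnnc2) were below the filter, and the mean of the other 3 ran from 5.06 to 6.15 in wild-type sham and 5.26 to 6.31 in wild-type TAC, and from 5.77 to 6.31 in G4D sham and 5.44 to 5.96 in G4D TAC. Casq2 had a TAC effect of 0.16 ± 0.07 in wild type, where its groups did not overlap, and of 0.14 ± 0.06 in G4D, and was called in neither (adjusted p = 0.163 and 0.118).

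Trdn encodes triadin, which anchors calsequestrin to the ryanodine receptor. Its levels were 10.21, 10.33, 10.54 and 10.40 in wild-type sham and 10.11, 10.15 and 10.32 as the lowest, median and highest of wild-type TAC. In G4D sham they were 10.07, 10.29, 10.20, 10.26 and 10.44, and in G4D TAC 9.71, 9.98 and 10.07 were the lowest, median and highest. The highest G4D TAC array lay just under the lowest G4D sham array, whereas wild-type sham and TAC overlapped. TAC and sham differed by -0.31 ± 0.08 in G4D (limma adjusted p = 0.00912) and -0.19 ± 0.09 in wild type (adjusted p = 0.221). Trdn had 6 probe sets above the filter, and 5 of them were called lower in G4D TAC when each was fitted on its own, at -0.28 to -0.45 (against 7.84% of all probe sets). Probe sets of 1 gene on the same arrays are not independent of each other. The sixth, the dimmest, gave -0.09 ± 0.28. The fall of Trdn was not seen in the values as deposited, where the difference was 0.12 (adjusted p = 0.734) beside a median of 0.31 over all genes.

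Hrc encodes the histidine-rich calcium-binding protein of the store lumen. Its levels were 11.52, 11.35, 11.37 and 11.45 in wild-type sham and 11.16, 11.20 and 11.31 as the lowest, median and highest of wild-type TAC, which lay wholly below. The G4D sham levels were 11.49, 11.37, 11.60, 11.47 and 11.33, and the G4D TAC levels ran from 10.55 through 11.04 to 11.47, with TAC replicates 3 and 4 inside the sham range. Its TAC effect was -0.38 ± 0.11 in G4D (limma adjusted p = 0.0185) and -0.20 ± 0.12 in wild type (adjusted p = 0.398). The G4D call was lost without G4D sham replicate 3 (-0.35, adjusted p = 0.0521) and with the G4D arrays fitted alone (adjusted p = 0.0865). The junctophilins Jph1 and Jph2, which tie the reticulum to the surface membrane, were not called, with effects of -0.19 ± 0.13 and -0.29 ± 0.13 in wild type and of -0.05 ± 0.12 and -0.21 ± 0.12 in G4D. Asph, whose locus also encodes junctin, differed by -0.17 ± 0.11 and -0.07 ± 0.11, and Calr, the luminal chaperone calreticulin, by -0.04 ± 0.13 and 0.05 ± 0.12.

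**Figure D2:**
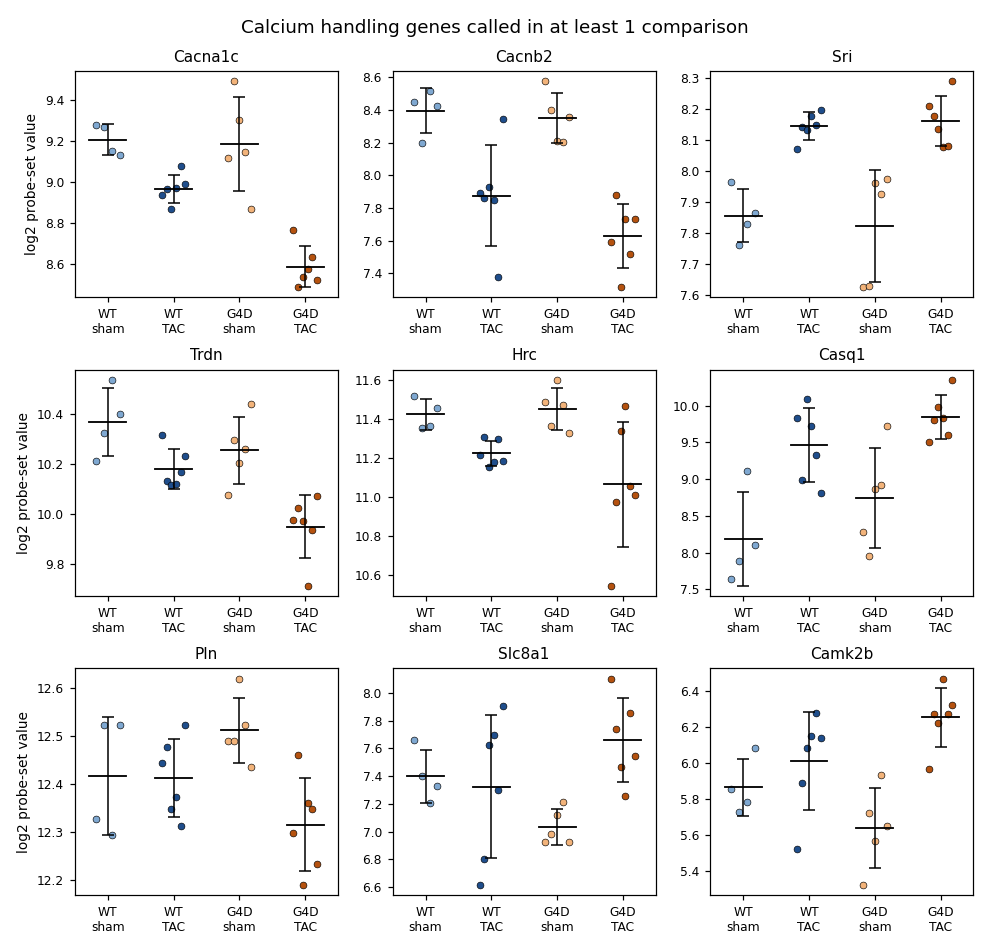
Normalized log2 probe-set values are shown for the 9 calcium handling genes called in at least 1 comparison, by group, with 1 point per array, a line at the group mean and bars of 1 SD (4 and 6 arrays of sham and TAC in wild type, 5 and 6 in G4D). The axes do not start at 0 and differ between genes. Sri rises and Cacnb2 falls in both genotypes, while Slc8a1 in wild-type TAC spreads from 6.62 to 7.91.

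For the uptake pump and its inhibitor the answer depended on the probe set. Atp2a2 encodes the SERCA2 pump, and Pln encodes phospholamban, which inhibits it. The brightest Atp2a2 probe set, 1416551_at, stood at 12.66, 12.72, 12.66 and 12.59 in wild-type sham and at 12.49, 12.63 and 12.72 as the lowest, median and highest of wild-type TAC. In G4D sham it stood at 12.77, 12.60, 12.66, 12.59 and 12.60, and in G4D TAC it ran from 12.45 through 12.69 to 12.75. Sham and TAC overlapped in both genotypes. The TAC effect was -0.03 ± 0.08 in wild type and -0.01 ± 0.07 in G4D, with 95% intervals from -0.19 to 0.12 and from -0.15 to 0.14. These levels are near the upper end of the scale, since the highest normalized value of any probe set was 13.1.

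Atp2a2 had 5 dimmer probe sets, which are singled out here after their values were seen. The second brightest, 1452363_a_at, gave -0.04 ± 0.08 in wild type and -0.09 ± 0.07 in G4D. The third, 1427250_at, gave -0.21 ± 0.07 and -0.23 ± 0.06 and was called in G4D (limma adjusted p = 0.0803 and 0.0148 among probe sets). The probe set 1427251_at was called lower in both genotypes. Its levels were 9.35, 9.29, 9.15 and 9.14 in wild-type sham, against 8.45 to 9.07 in wild-type TAC, and 8.83, 9.12, 9.16, 9.09 and 9.25 in G4D sham, against 8.21 to 8.68 in G4D TAC. Sham and TAC did not overlap in either genotype, and the differences were -0.51 ± 0.13 (adjusted p = 0.0238, against 5.57% of all probe sets called) and -0.66 ± 0.12 (adjusted p = 0.000699, against 19.6% called). The probe set 1437797_at gave -0.52 ± 0.22 and -0.66 ± 0.20 and was called in G4D (adjusted p = 0.195 and 0.0272), and the dimmest, 1443551_at, gave -0.74 ± 0.30 and -0.54 ± 0.28 and was called in neither. All 6 differed downwards in both genotypes, by amounts from under 0.1 in the 2 brightest to over 0.5 in the 3 dimmest. With the mean of the gene's probe sets in place of the brightest, Atp2a2 was called lower in G4D TAC. Which transcripts each probe set reads is not given in the sources used here.

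**Figure D3:**
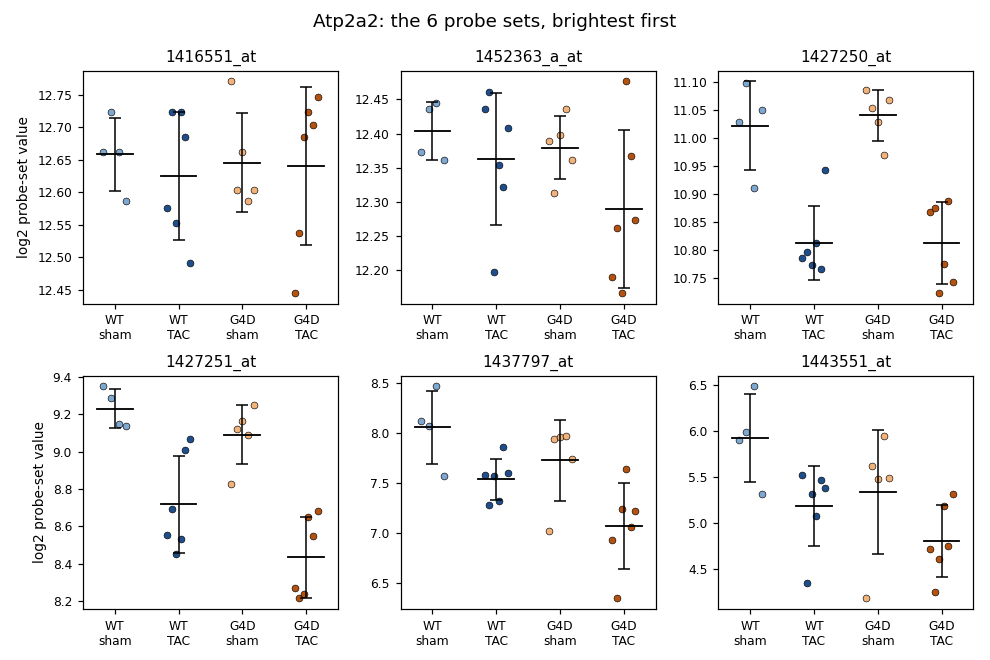
Normalized log2 values of the 6 Atp2a2 probe sets are shown by group, brightest first, with 1 point per array, a line at the group mean and bars of 1 SD (n = 4, 6, 5 and 6). The axes do not start at 0 and differ between probe sets. The brightest overlaps in every group near 12.6, while 1427251_at in the TAC arrays lies below all sham arrays of the same genotype.

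Pln fell slightly in G4D TAC. Its levels were 12.33, 12.52, 12.29 and 12.52 in wild-type sham and 12.31, 12.41 and 12.52 as the lowest, median and highest of wild-type TAC. In G4D sham they were 12.49, 12.49, 12.62, 12.52 and 12.44, and in G4D TAC they ran from 12.19 through 12.32 to 12.46. G4D TAC replicate 2 alone reached into the sham range. As with the brightest Atp2a2 probe set, these levels are near the upper end of the scale, where the highest normalized value was 13.1. The TAC effect was -0.20 ± 0.07 in G4D (limma adjusted p = 0.0468) and 0.00 ± 0.07 in wild type (adjusted p = 0.986). The G4D call was lost when any of 13 of the 21 arrays was left out, 8 of them G4D arrays (sham replicates 1 to 4 and TAC replicates 1, 3, 5 and 6), with values from -0.23 to -0.17 over all arrays left out. The other 5 were wild-type sham replicate 1 and wild-type TAC replicates 1 to 4, which left the value at -0.20. The adjusted p was 0.0874 with the replicate block, 0.105 with the G4D arrays fitted alone and 0.0567 without the filter. The Pln probe set next in brightness, 1423359_at, gave -0.29 ± 0.09 in G4D (adjusted p = 0.0237 among probe sets), and the third gave -0.15 ± 0.08 (adjusted p = 0.193).

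Among the extrusion genes, Slc8a1, the sodium-calcium exchanger NCX1, rose in G4D TAC (13.2% of all tested genes did). Its levels were 7.66, 7.40, 7.21 and 7.33 in wild-type sham and 6.62, 7.46 and 7.91 as the lowest, median and highest of wild-type TAC. In G4D sham they were 6.93, 6.98, 7.12, 7.22 and 6.92, and in G4D TAC they ran from 7.25 through 7.64 to 8.10, above every G4D sham array. Wild-type TAC arrays lay on both sides of the wild-type sham arrays, with replicates 1 and 2 lowest. It differed by 0.63 ± 0.19 in G4D (limma adjusted p = 0.0232), a level 54.4% higher, and -0.07 ± 0.21 in wild type (adjusted p = 0.888). The interaction was 0.70 ± 0.28, the largest in size among the members, with an unadjusted p of 0.0216 and an adjusted p of 0.468. The G4D call was lost without G4D sham replicate 1 (0.60, adjusted p = 0.0527), without G4D TAC replicate 1 (0.54, adjusted p = 0.0583) and with the replicate block (0.58, adjusted p = 0.0754). Of the dimmer Slc8a1 probe sets, 1440201_at was called higher in G4D TAC at 1.02 ± 0.19 (adjusted p = 0.000768 among probe sets), while 1425817_a_at gave -0.01 ± 0.24. The promoter window of Slc8a1 is the one printed above with 4 GATA matches. The plasma membrane pumps Atp2b1 and Atp2b4 were not called, at 0.06 ± 0.11 and -0.34 ± 0.17 in wild type and 0.21 ± 0.11 and 0.04 ± 0.16 in G4D.

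Of the 4 calmodulin-dependent kinase II genes, Camk2b rose in G4D TAC (13.2% of all tested genes did). Its levels were 5.86, 5.73, 5.78 and 6.09 in wild-type sham and 5.52, 6.11 and 6.28 as the lowest, median and highest of wild-type TAC. In G4D sham they were 5.32, 5.72, 5.57, 5.93 and 5.65, and in G4D TAC they ran from 5.97 through 6.27 to 6.47. All 6 G4D TAC arrays lay above all G4D sham arrays, and the wild-type groups overlapped. TAC over sham was 0.62 ± 0.13 in G4D (limma adjusted p = 0.0013), a level 53.4% higher, and 0.15 ± 0.13 in wild type (adjusted p = 0.61), with an interaction of 0.47 ± 0.18 (adjusted p = 0.455, unadjusted p = 0.0192). Camk2d, the main cardiac isoform, was not called at -0.03 ± 0.11 in wild type and 0.19 ± 0.11 in G4D (adjusted p = 0.216). Without G4D TAC replicate 4, its lowest array at 8.20, it was called higher, and 25.2% of all tested genes were called in that setting. The dimmer Camk2d probe sets overlapped between G4D sham and TAC. Probe set 1427763_a_at ran from 7.65 to 8.22 in G4D sham and from 6.98 to 8.26 in G4D TAC. For 1459457_at the ranges were 7.10 to 7.49 and 6.69 to 7.51. Camk2a differed by -0.15 ± 0.16 and -0.19 ± 0.15, and Camk2g by -0.05 ± 0.08 and 0.09 ± 0.07.

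None of the store-operated and receptor-operated entry genes was called in any comparison. Trpc1, a receptor-operated channel, had the largest interaction of this group. Its levels were 4.81, 4.76, 4.79 and 4.60 in wild-type sham, 4.08, 4.60 and 4.70 as the lowest, median and highest of wild-type TAC, 4.10, 4.68, 3.99, 4.79 and 4.75 in G4D sham, and 4.37, 4.58 and 4.83 as the lowest, median and highest of G4D TAC. The groups overlapped throughout, at levels just above the filter of 4.35. The TAC effect was -0.25 ± 0.16 in wild type and 0.14 ± 0.15 in G4D, and the interaction was 0.38 ± 0.22 (limma adjusted p = 0.68). Stim1, the calcium sensor of the reticulum, differed by 0.02 ± 0.10 and -0.10 ± 0.10, and Orai1, the channel it opens, by 0.02 ± 0.13 and -0.13 ± 0.12. A dimmer Orai1 probe set, 1424989_at, was called higher in G4D TAC at 0.28 ± 0.10 (adjusted p = 0.0424 among probe sets). The untested Trpc6, at a level of 3.11 to 4.79, gave -0.18 ± 0.31 in wild type and -0.48 ± 0.30 in G4D.

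Between the genotypes in sham hearts none of the 31 calcium handling genes was called by limma (against 0.0527% of all tested genes), and 2, Asph and Camk2g, had an unadjusted p under 0.05 (against 8.09%). Asph stood at 9.79, 9.81, 9.65 and 9.69 in wild-type sham and at 9.32, 9.29, 9.57, 9.44 and 9.39 in G4D sham. These groups did not overlap, as in 2.9% of all tested genes, and the difference was -0.34 ± 0.12 (limma adjusted p = 0.413). Its dimmer probe sets were not called in sham and did not all go the same way. Probe set 1425274_at ran from 9.12 to 9.46 in wild-type sham and from 8.75 to 9.29 in G4D sham. For 1420959_at the ranges were 7.25 to 7.63 and 7.37 to 8.05. Camk2g differed by -0.16 ± 0.08 (adjusted p = 0.612). The members' median was -0.05, against -0.01 for all genes, and their differences ran from -0.37 ± 0.21 (Slc8a1) to 0.56 ± 0.33 (Casq1). The 95% interval for Casq1 ran from -0.12 to 1.24, so a missing call does not show that the genotypes were alike.

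After TAC, Cacna1c was lower in G4D than in wild type by 0.38 ± 0.08 on the log2 scale (limma adjusted p = 0.0135), which is -23.2%. It was the only call among the 31 (3.23%, against 3.36% of all tested genes). Leaving out any 1 of the 12 TAC arrays kept the call, at -0.42 to -0.36, while both other scalings ended it, at -0.32 with median centring (adjusted p = 0.543) and -0.20 in the values as deposited (adjusted p = 0.927). Relative to the median of all genes it was -0.38 after quantile normalization and -0.34 under both others, which give the same value by construction. The dimmer Cacna1c probe set gave -0.21 (adjusted p = 0.579 among probe sets), and with the mean of both probe sets the difference was -0.30 and was not called (adjusted p = 0.136). Trdn was lower in every G4D TAC array than in every wild-type TAC array, at -0.23 ± 0.08, and was not called (adjusted p = 0.119). Cacna1c and Trdn were the 2 members whose groups did not overlap here, as in 2.59% of all tested genes. Casq1, Slc8a1 and Camk2b had differences of 0.38 ± 0.28, 0.34 ± 0.18 and 0.24 ± 0.12 and were not called (adjusted p = 0.665, 0.48 and 0.403). The comparison of G4D with wild type after TAC and both TAC effects share the TAC arrays.

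**Figure D4:**
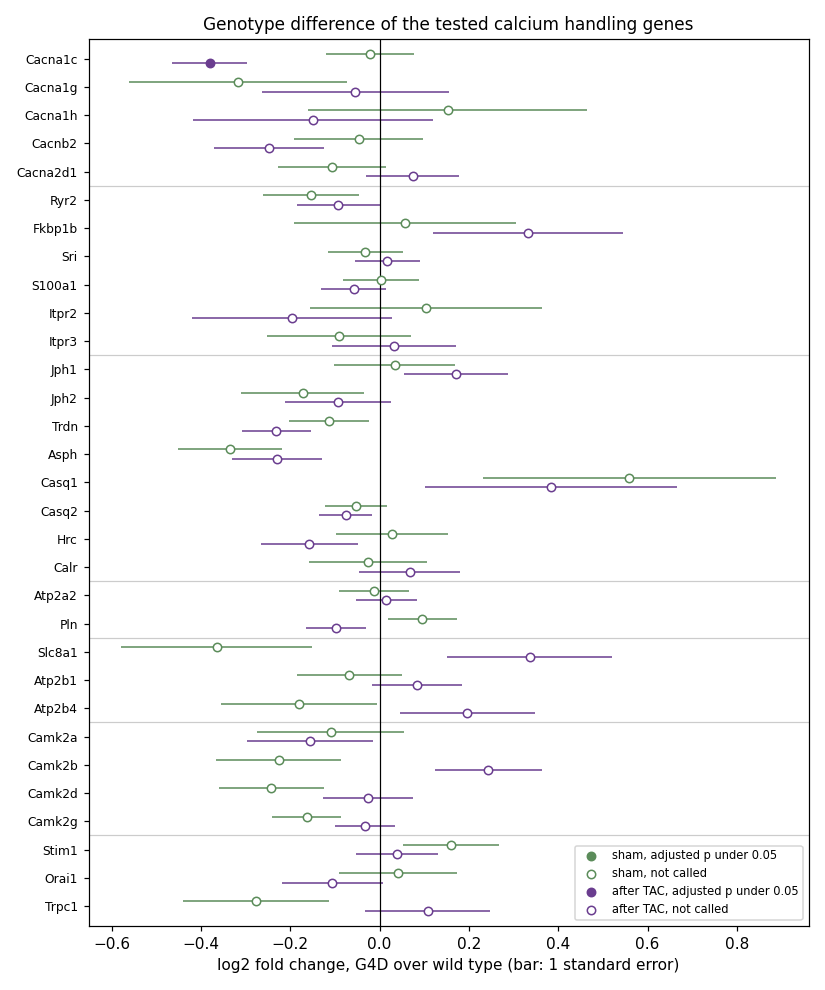
Differences between G4D and wild type (log2 fold change) are plotted for the 31 tested calcium handling genes in sham (green) and after TAC (purple), with bars of 1 standard error and filled points for an adjusted p under 0.05. Cacna1c after TAC, at -0.38, is the only filled point, and none is filled in sham.

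The other genes of calcium handling, 62 in a list of 8 groups, of which 45 were tested, were called at rates near those of all tested genes. In wild-type TAC 4 rose and 1 fell (7.35% of all tested genes were called). In G4D TAC 8 rose and 1 fell (against 22.5%), and after TAC 1 was higher in G4D than in wild type (against 3.36%). In sham and in the interaction none was called (against 0.0527% and 0.0151%). Of the 8 luminal chaperones and calcium-binding proteins, 3 rose in wild-type TAC (against 5.19% of all tested genes) and 4 in G4D TAC (against 13.2%). Rcn3, a reticulocalbin of the secretory pathway, had the largest difference, 0.61 ± 0.14 in wild type and 1.10 ± 0.13 in G4D (limma adjusted p = 0.01 and 6.11e-06), and was the one gene higher in G4D after TAC, at 0.53 ± 0.13 (adjusted p = 0.0223). Among 12 tested reticulum pumps, release channels and partners, Fkbp1a, the immunophilin partner of ryanodine receptors, rose by 0.45 ± 0.10 in wild type and 0.45 ± 0.09 in G4D (adjusted p = 0.00797 and 0.00137). Tmem38a, a potassium channel of the reticulum, was called lower in wild type at -0.38 ± 0.11 (adjusted p = 0.0446), and in G4D it differed by -0.29 ± 0.11 (adjusted p = 0.0519). Of the phosphatase genes that act on phospholamban, Ppp1r3a was called lower in G4D at -0.53 ± 0.15 (adjusted p = 0.0133) and Ppp1cc higher at 0.28 ± 0.07. Stim2, the relative of Stim1, rose in G4D by 0.54 ± 0.17 (adjusted p = 0.0277). None of the mitochondrial uptake genes, the other surface channel subunits, the RGK inhibitors or the other exchangers and pumps was called. Fibroblast and macrophage markers rose with TAC in the same arrays (5 of 9 and 7 of 8 called higher in wild type, 5 of 9 and 8 of 8 in G4D, with 1 fibroblast marker lower in each). Of the 8 cardiomyocyte markers, 1 was called lower in G4D TAC (against 9.32% of all tested genes) and 0 were called in wild-type TAC. Of 7 tested smooth muscle and pericyte markers, 1 was called higher in wild-type TAC, 2 in G4D TAC and 3 in G4D over wild type after TAC (against 3.36% of all tested genes), and their mean was 8.51 to 8.87 in wild-type TAC and 8.73 to 9.28 in G4D TAC. These markers did not move together. Acta2, Des and Cspg4 were higher in every G4D TAC array than in every wild-type TAC array (2.59% of all tested genes did not overlap). Myh11 ran from 5.95 to 6.54 in wild-type TAC and from 5.54 to 6.68 in G4D TAC. Tagln, Rgs5 and Pdgfrb overlapped as well. The part of any of these cell types in the results was not tested.

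The calls of the falls rest on the normalization. The median of all tested genes in the G4D TAC effect was -0.02 after quantile normalization, 0.10 after centring each array on its median and 0.31 in the values as deposited. The 4 rises in G4D TAC, of Casq1, Slc8a1, Camk2b and Sri, were called under all 3 scalings. Of the 5 falls, none was called with median centring or as deposited, so the split was 4 higher and 5 lower after quantile normalization and 4 higher and 0 lower under both others. Among all genes called in G4D TAC, 58.6% were higher after quantile normalization, 88.8% after median centring and 97.8% as deposited. Median centring shifts each array by a constant, so a difference relative to the median of all genes equals the deposited one by construction. Taken relative to that median, each of the 5 lay below it after quantile normalization and in the deposited values. The 5 were picked as falls after quantile normalization, so their place below it there was given in advance. The relative values were not tested. Cacna1c lay below it by -0.57, -0.47 and -0.47 (quantile normalized, median centred, as deposited), Cacnb2 by -0.70, -0.60 and -0.60, and Hrc by -0.36 each time. Trdn stood at -0.28, -0.18 and -0.18 and Pln at -0.17, -0.33 and -0.33. In wild-type TAC, Casq1 alone was called with median centring and none of the 3 members as deposited. Of all genes called there, 70.6% were higher after quantile normalization, 93.8% after median centring and 94.7% as deposited.

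**Figure D5:**
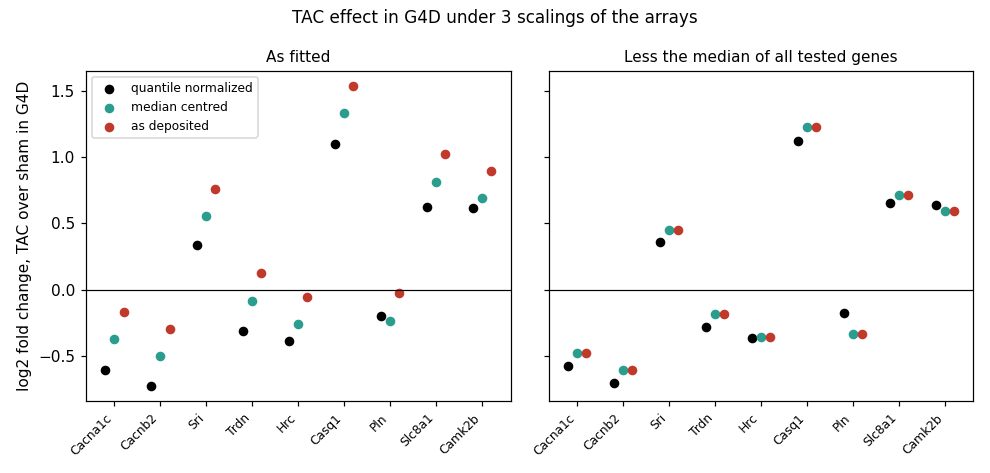
The log2 fold change of TAC over sham in G4D is shown for the 9 called calcium handling genes under 3 scalings of the arrays, as fitted (left) and less the median of all tested genes (right). On the left the 5 genes that fell move upwards from quantile normalized to as deposited values, Trdn to above 0 at 0.12. On the right, where the median centred and deposited points coincide by construction, all 5 stay below 0, which was not tested.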

How the data were processed

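Gene expression was measured in 21 mouse heart samples on Affymetrix Mouse Genome 430 2.0 arrays, labelled as total RNA of cardiac myocytes. The deposited values are log2 probe-set intensities summarised by the authors with PLIER, per the submitters' processing notes. The background correction and normalization used with it are not given in the sources used here, and the log2 scale was read from the values, which ran from -13.5 to 15.1. Quantile normalization over 45037 non-control probe sets was applied here. Probe sets with 1 gene symbol and a mean at or above the 40th percentile (4.35) were kept, and the brightest represented each gene. Group means of all 21 arrays entered 1 fit in limma 3.58.1 (lmFit and eBayes, 17 residual degrees of freedom, R 4.3.3), two-sided, with Benjamini-Hochberg adjustment over all genes. The number of arrays limits the precision. The script was tested on simulated data.

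The members, role groups and lists were chosen with earlier results of these data known. Full values are given for members called in at least 1 comparison and, in a role group without a call, for the member with the largest interaction. Dimmer probe sets were fitted among 22661 probe sets, an alternative chosen after seeing the data. The annotation gave the 32 members 89 probe sets, of which 78 passed the filter. Promoter windows came from RefSeq and were matched by symbol. The alternatives were the filter, the scaling, the mean of a gene's probe sets, the groups of a comparison alone, the replicate block and leaving out each array.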

Additional observations from a re-analysis of the deposited data

Results flagged for a closer look

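Over the 32 calcium handling genes with a probe set, 128 groups of 4 to 6 arrays were examined for 1 array far from the rest. Chance alone gives such a gap in about 5% of groups, which is 6.4 of them, and 3 were found. Camk2a stood at 6.49 in wild-type TAC replicate 5, while the other 5 arrays of the group ran from 5.83 to 6.04. Camk2d stood at 8.20 in G4D TAC replicate 4, below the 8.65 to 8.78 of the other 5. Orai1 stood at 7.08 in G4D sham replicate 5, below the 7.45 to 7.53 of the other 4.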

How the results depend on the processing

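The number of calcium handling genes called stayed within 1.5 times its value, in each of the 5 comparisons, without the filter, with a filter at the 60th percentile, with the groups of the comparison alone, with the replicate block and with each probe set tested on its own. It did not under other scalings or, in part, with the mean of a gene's probe sets. In wild-type TAC the 3 calls became 0 in the values as deposited (0.716% of all genes), 1 with median centring (2.92%) and 1 with the mean of the gene's probe sets (6.69%), and 1 to 3 with any 1 array left out (4.23% to 8.6%). In G4D TAC the 9 calls became 4 as deposited (17% of all genes) and 4 with median centring (16.4%), and ran from 7 to 10 with any 1 array left out (18.1% to 25.2%). After TAC the 1 call became 0 as deposited (0.482% of all genes), 0 with median centring (1.39%) and 0 with the mean of the gene's probe sets (3.13%), and stayed at 1 with any array left out (1.86% to 4.85%). A pair of differences changed sign as deposited: Trdn in G4D TAC to 0.12, and the Cacna1c interaction, which was not called, to 0.17. All genes together had a median of 0.31 and 0.42 there. The cause was not tested.

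The replicate numbers of the titles did not pair the arrays. Deviations from the group means correlated from -0.36 to 0.42 over 28 pairs of arrays with the same number, with 9 pairs above 0.1, and 2 of 21 arrays correlated best with their own number. Over the 136 pairs with different numbers the correlations ran from -0.51 to 0.53. What such pairs share was not tested, and the fit holds no term for it. With the replicate block 0, 2, 7, 1 and 0 members were called in sham, wild-type TAC, G4D TAC, after TAC and in the interaction, against 0.0226%, 3.67%, 17.9%, 2.06% and 0.00753% of all genes. Signals near the filter, as for Trpc1, Trpc6, Fkbp1b and Cacna1h, limit what could be detected there.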
